A study of Canis rufus and Canis latrans with 56 samples.

Results

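Actin and the proteins that build, cut, cap, branch and anchor its filaments were followed in the blood of red wolves. The set was a list of 46 human genes, and each gene was read by its brightest probe among those annotated to it on a human bead array. Of the 46 genes, 42 had an annotated probe, out of 16121 genes named by the 24354 probes, and CAP1, ACTR2, FLNA and TPM3 were not analysed here. Whole blood kept in RNAlater came from 13 red wolves (Canis rufus) and 1 coyote (Canis latrans), and the labelled RNA of each animal was put on 4 arrays. The 56 arrays lay on 7 slides. Per the design text, the wolves were 6 captive animals (2 females, 4 males) and 7 free-ranging ones (2 females, 5 males), and the coyote was a free-ranging female. Ages are not given in the sources used here. The labels used here give neither status for each wolf nor the sex of single wolves. The animals were therefore compared one by one, and confinement was not analysed here. Some arrays of wolves 11136, 111080 and 11310 and of the coyote are described as collected in the wild, which was not used to form groups.

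Actin monomers join into filaments that push the cell membrane forward, carry contraction and hold receptors in place. Cofilin and gelsolin cut filaments, profilin and the thymosins hold or hand on monomers, and capping protein closes the fast-growing end. The Arp2/3 complex starts new branches when it is switched on by proteins of the WASP family. In blood this machinery lets neutrophils and other white cells crawl and engulf, and lets platelets change shape. Mature red cells keep a separate membrane skeleton of spectrin and short actin filaments.

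Levels are given as log2 intensity above or below the array's mean, and 1 unit stands for a 2-fold change in intensity. Each animal's value is the mean of its 4 arrays after slide differences were taken out. The level of a probe depends on how well the human sequence binds the canid transcript, so levels of different genes were not ranked. Background was bounded at 0.396, the top mean over the 14 animals reached by any of 37 liver and muscle genes that blood should lack. Arrays differed in signal range, with 95th percentiles between 0.332 and 1.24. The SD over probes, averaged over a wolf's arrays, went from 0.365 (wolf 11136) to 0.565 (wolf 111080). Few of the listed white cell markers were bright, and how well their human probes bind canid RNA was not tested. CORO1A and LCP1, described below as genes of white cells, did lie above the bound. Above the bound lay 0 of 8 measured neutrophil markers, 1 of 7 monocyte markers (TYROBP), 1 of 6 T cell markers (LCK) and 0 of 3 B cell markers, against 2 of 5 platelet and 5 of 6 red cell markers. In whole blood, fewer cells of a type and less RNA per cell cannot be told apart, and the same holds for an animal and the labelling of its RNA. Precision is limited by having 4 arrays per animal.

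Among the 13 wolves, 21 of the 42 measured genes (50%) differed from animal to animal by more than repeated arrays of the same animal did. All probes gave a share of 11.2% in the same test, an F test of the animal terms in limma that also fits slide, at an adjusted p under 0.05. All 15 genes whose mean over the wolves lay above the background bound were among the 21, where 78.0% of the 2070 probes above the bound passed. The other 6 of the 21 lay below the bound, as did the 21 that did not pass. The bound is a mean over animals. Of the 37 liver and muscle genes 7 exceeded it in at least 1 wolf, up to 0.625, and 2 of the 37 passed the F test. The p values measure animals against array noise, since the 4 arrays of a wolf share its RNA.

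The spread was wide for bright probes. The 15 genes had a median SD over wolves of 0.636 and a median share of variance between wolves of 0.84, against 0.239 and 0.516 for all probes above the bound. They were also brighter, with a median level of 2.98 against 0.805. For the 9 genes with a level above 2 the median SD was 0.867, against 0.532 for all 230 probes that bright, of which 99.6% passed the F test. These medians are descriptions, and no test set the genes against other probes.

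**Figure D1:**
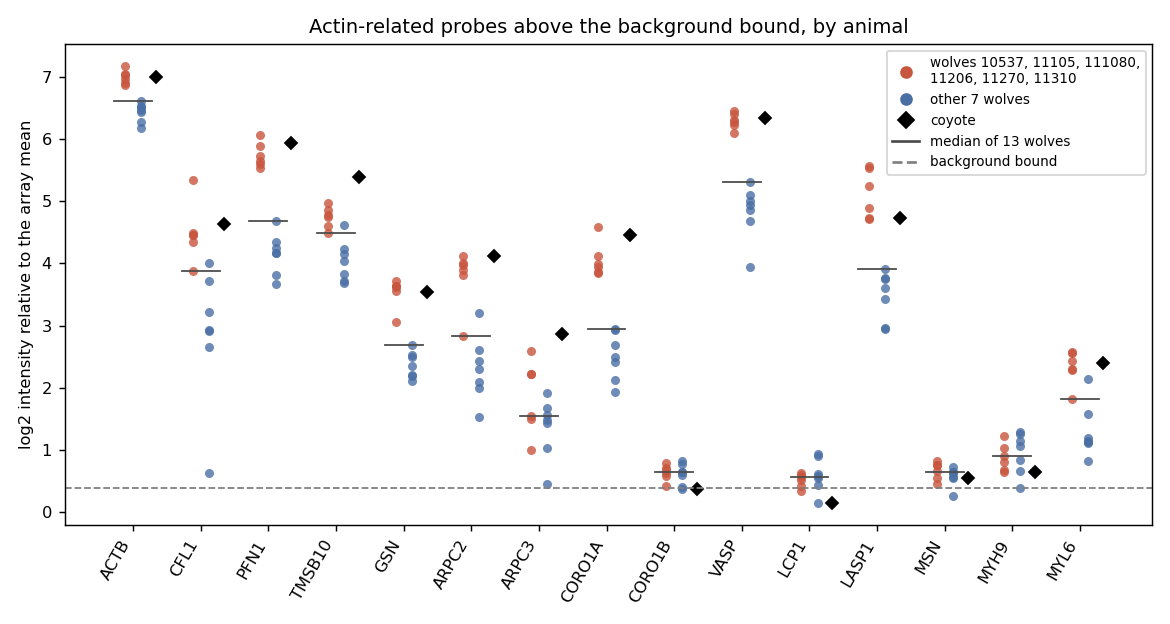
Log2 level (vertical axis) of the 15 actin-related genes above the background bound (horizontal axis) in each animal, with a point for each of the 13 wolves, a diamond for the coyote and a bar at the median of the wolves. Wolves 10537, 11105, 111080, 11206, 11270 and 11310 are in red and stand clear of the other 7 in ACTB, PFN1, GSN, CORO1A, VASP and LASP1, while CFL1 has a single wolf at 0.64.

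ACTB, cytoplasmic beta-actin and often used as a reference gene, varied 2.01-fold. Its level was lowest in wolf 11273 at 6.17, had a median of 6.62 and was highest in wolf 11206 at 7.18. The SD over wolves was 0.32 against 0.22 between arrays (limma adjusted p = 9.08e-07). The call was lost without the slide term (adjusted p = 0.0909). With all arrays forced to one distribution (quantile normalization), wolf 11136 became the highest. With arrays scaled to equal SD the range was 4.57-fold. The probe of ACTG1, cytoplasmic gamma-actin, whose transcript is nearly the same in its coding part, lay below the bound in all 13 wolves, at -0.40 to -0.23. Signal of these near-identical actins may be shared between probes, which was not tested.

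Genes of filament turnover held the gene with the largest spread, CFL1. CFL1 encodes cofilin, which severs old filaments. It stood at 0.64 in wolf 11136, at a median of 3.88 and at 5.33 in wolf 111080, a 26.0-fold range (SD 1.18 against 0.24 between arrays, limma adjusted p = 3.17e-31). Wolf 11136 lay far below the next lowest wolf, 11273, at 2.65. Without wolf 11136 the range was 6.43-fold and the SD 0.808. After quantile normalization the range over all 13 wolves was 12.9-fold. CFL2, the muscle form of cofilin, was below the bound in all 13 wolves, on each of its 3 probes.

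PFN1, profilin, which loads actin monomers for growth, ran from 3.67 in wolf 11273 through a median of 4.67 to 6.07 in wolf 111080, a 5.28-fold range (SD 0.87 against 0.21 between arrays, limma adjusted p = 2.47e-25). No wolf lay between 4.67 and 5.54. GSN, gelsolin, which cuts and caps filaments when calcium rises, ran from 2.11 in wolf 10632 through 2.69 to 3.72 in wolf 11206, a 3.05-fold range (SD 0.64 against 0.18, limma adjusted p = 1.55e-21). Its SD was 0.404 after quantile normalization. The other probes of GSN lay at 0.55 and -0.35 and did not pass the test (limma adjusted p = 0.225 and 0.695). The probe at 0.55 was lowest in wolf 11270 and highest in wolf 11273, and its r with the brightest probe was -0.0659 as deposited, -0.578 after quantile normalization and -0.602 at equal SD, given as descriptions. TMSB10, a thymosin that holds actin monomers, ran from 3.69 in wolf 11148 through 4.49 to 4.96 in wolf 10537, a 2.42-fold range (SD 0.45 against 0.20, limma adjusted p = 4.56e-12). After quantile normalization its SD was 0.263 and its lowest wolf was 111080. Of the remaining turnover genes, TMSB4X, the other thymosin, passed the test below the bound (median 0.21, limma adjusted p = 3.02e-05) and exceeded the bound in 2 wolves. PFN2 and CAPG, a capping relative of gelsolin, were below it in all 13 wolves and did not pass.

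The 3 genes of capping protein lay below the bound. CAPZB, the beta subunit, passed the F test (limma adjusted p = 1.48e-06), from -0.10 in wolf 11273 to 0.63 in wolf 111080, and exceeded the bound in 2 wolves. CAPZA1 exceeded it in none. It passed at 0.0285 and lost the call without array replicate 1, 2, 3 or 4 of each animal, without wolf 11136 or 11270, and with position on the slide in the model, at adjusted p values up to 0.411. CAPZA2 did not pass (limma adjusted p = 0.295).

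Of the Arp2/3 complex, which branches filaments, 7 of the 8 listed genes were measured (ARPC1A and ARPC1B are alternative forms of a subunit), and 2 were above the bound, both of which passed. ARPC2 ran from 1.53 in wolf 11273 through a median of 2.84 to 4.12 in wolf 11310, a 6.02-fold range (SD 0.90 against 0.35 between arrays, limma adjusted p = 3.78e-20). ARPC3 ran from 0.46 in wolf 11148 through 1.55 to 2.60 in wolf 11310, a 4.39-fold range (SD 0.57 against 0.41, limma adjusted p = 7.71e-10). Wolf 11310 was highest for both, while wolf 11270, with ARPC2 at 4.00, had ARPC3 at 0.99. ARPC1A, ARPC1B, ARPC4, ARPC5 and ACTR3 were below the bound in all 13 wolves, and none passed (adjusted p values between 0.141 and 0.642). The complex is therefore described here by 2 genes.

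The probes of ARPC2 did not go together. A second probe passed the test too (limma adjusted p = 7.24e-09) and ran the other way in the wolves at the ends, from 1.13 in wolf 11310, where the brightest probe was highest, to 1.97 in wolf 11275. Across the 13 wolves, r between the 2 probes was -0.448 as deposited, -0.813 after quantile normalization and -0.859 with arrays scaled to equal SD, given as descriptions. The remaining probe lay below the bound, at 0.19. Which canid transcript each probe binds was not examined.

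Among the genes that control branching, CORO1A, a coronin of white cells that binds Arp2/3 and filaments, ran from 1.93 in wolf 11273 through 2.94 to 4.59 in wolf 111080, a 6.32-fold range (SD 0.87 against 0.21 between arrays, limma adjusted p = 3.12e-26). No wolf lay between 2.94 and 3.85, and the range was 4.11-fold with arrays scaled to equal SD. CORO1B, a coronin of many cell types, ran from 0.37 in wolf 10632 through 0.64 to 0.83 in wolf 11148 (SD 0.15 against 0.12, limma adjusted p = 0.00409). Its call was lost after quantile normalization (0.268), without the slide term (0.0506), without wolf 10632 (0.0549) and without replicate 1, 2 or 3 (0.140 to 0.250). CORO1C, WAS, which switches Arp2/3 on in blood cells, its partner WIPF1 and WASF2 were below the bound in all 13 wolves and did not pass.

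VASP, which lengthens filaments at their fast-growing end and is a major phosphoprotein of platelets, ran from 3.94 in wolf 11273 through 5.30 to 6.44 in wolf 11105, a 5.68-fold range (SD 0.82 against 0.23 between arrays, limma adjusted p = 2.48e-23). Its 6 highest wolves began at 6.10, and no wolf lay between that level and the median. EVL, of the same protein family, was below the bound in all 13 wolves.

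Of the crosslinkers, LCP1, the plastin of white cells that bundles filaments, ran from 0.15 in wolf 11136 through 0.56 to 0.94 in wolf 11148 (SD 0.21 against 0.12 between arrays, limma adjusted p = 3.85e-07). Its level was above the bound in 11 of 13 wolves. ACTN1, an alpha-actinin, passed below the bound (limma adjusted p = 0.00327) and exceeded it in 4 wolves, and it lost the call without replicate 2 (0.0752) or 3 (0.0520). ACTN4 did not pass. Among adhesion genes, LASP1, which carries LIM and SH3 domains and binds actin at adhesion sites, ran from 2.95 in wolf 10406 through 3.91 to 5.57 in wolf 111080, a 6.16-fold range (SD 0.92 against 0.20, limma adjusted p = 2.07e-27). TLN1, talin, which couples integrins to actin, passed below the bound (limma adjusted p = 6.61e-11). It exceeded the bound in 5 wolves, at most 0.93 in wolf 111080. ZYX, zyxin, passed likewise (limma adjusted p = 8.77e-05) and exceeded the bound in 1 wolf, while VCL, vinculin, did not pass on either probe. The 6 genes that passed below the bound were named after their values were seen.

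MSN, moesin, which ties filaments to the membrane, ran from 0.26 in wolf 11136 through 0.64 to 0.82 in wolf 10537 (SD 0.15 against 0.13 between arrays, limma adjusted p = 0.00533). Its call was lost without wolf 11136 (0.224) and without replicate 1 (0.226) or 3 (0.104). Its relatives EZR and RDX were below the bound in all 13 wolves. MYL6, the essential light chain of non-muscle myosin, ran from 0.83 in wolf 11273 through 1.82 to 2.57 in wolf 11310, a 3.35-fold range (SD 0.64 against 0.26, limma adjusted p = 7.74e-18). MYH9, the heavy chain of the main non-muscle myosin of platelets and white cells, ran from 0.39 in wolf 11136 through 0.90 to 1.29 in wolf 11273 (SD 0.28 against 0.21, limma adjusted p = 1.52e-06). The wolf with the most MYH9 signal thus had the least MYL6 signal. The tropomyosin genes TPM1 and TPM4 were below the bound in all 13 wolves and did not pass.

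**Figure D2:**
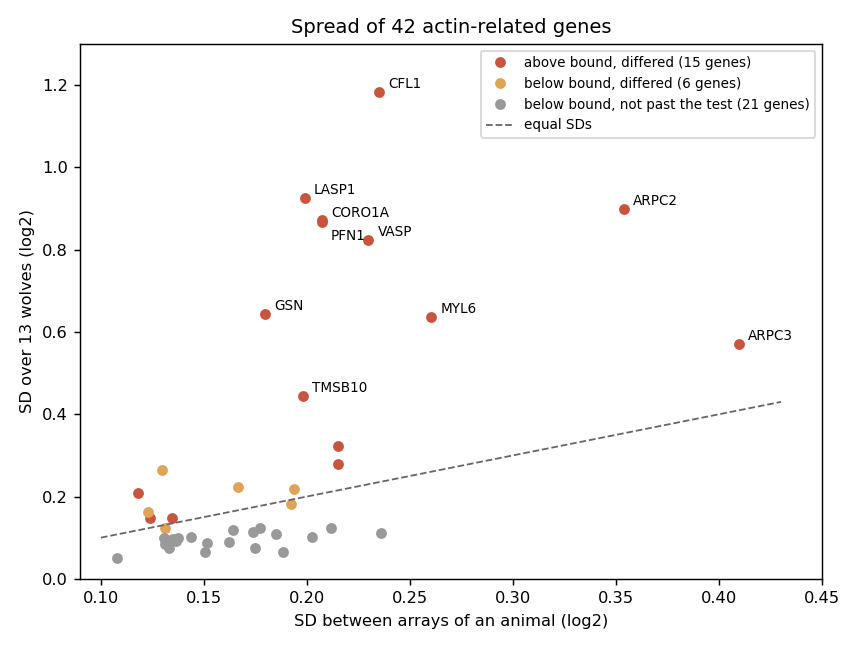
SD over the 13 wolves (vertical axis, log2) against SD between the arrays of an animal (horizontal axis, log2) for the 42 measured genes, coloured by background bound and F test. CFL1 stands highest at 1.18 against 0.24. The 21 genes that did not pass lie below the dashed line of equal SDs, as do CAPZA1 and ACTN1, which passed. The vertical SD is of means of 4 arrays and the horizontal SD of single arrays, so the line does not mark the test.

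The wolves fell into the same sets of 6 and 7 for several of these genes, though not in the same order within a set. Wolves 10537, 11105, 111080, 11206, 11270 and 11310 were the 6 highest for PFN1, and they were also the 6 highest, with no overlap with the other 7, for ACTB, GSN, CORO1A, VASP and LASP1. That is 6 of the 15 genes above the bound, PFN1 included. Of the 1614 probes that passed above the bound, 23.2% showed the same 6 on top, and 0 showed them as the 6 lowest. The set was read from PFN1 after its values were seen, and nothing was tested between these wolves and the others. In each of the 7 slides taken alone, the arrays of these wolves lay above those of the others for PFN1, GSN, CORO1A, VASP and LASP1, and for ACTB they did so in 5 of the 7. The slides hold the same arrays from which these genes were picked, and the 4 arrays of a wolf share its RNA. The slides are therefore not independent repeats of the split. Each of the 6 wolves exceeded the median of the wolves in 10 to 13 of the 15 genes, and each of the other 7 in 2 to 4. The 6 genes named above enter these counts, so much of that contrast is built in. The same counts were not made over other probes. CFL1, TMSB10, ARPC2 and MYL6 had 5 of the same wolves among their 6 highest, and LCP1 and MYH9 had 2.

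**Figure D3:**
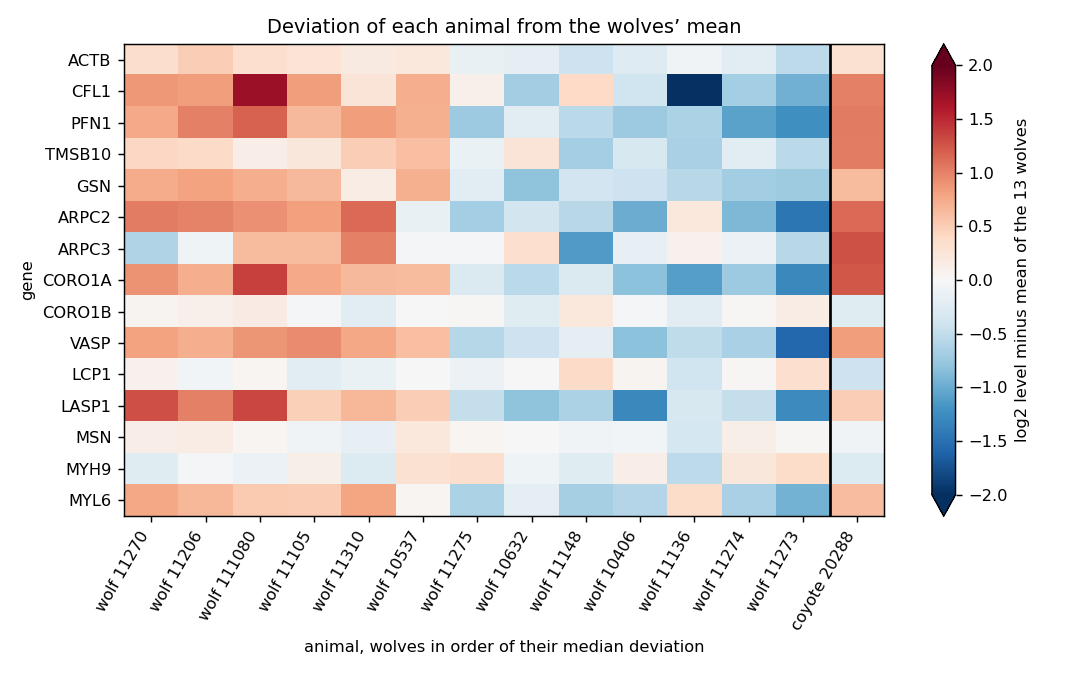
Log2 level minus the mean of the 13 wolves (colour, from -2 in blue to 2 in red, values beyond at the end colours) for the 15 genes (rows) in each animal (columns), wolves from the highest to the lowest median deviation and the coyote at the right. The columns run from wolf 11270, with a median deviation of 0.736, to wolf 11273, at -0.712, while rows of LCP1, MSN, CORO1B and MYH9 stay pale.

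The mean SD of the arrays over probes lay between 0.479 and 0.565 in these 6 wolves and between 0.365 and 0.538 in the other 7, which overlap, and its part in the split was not tested. After quantile normalization the same 6 wolves remained on top without overlap for PFN1, GSN, CORO1A and VASP, with 4.83% of the 1614 probes doing so. They were then the 6 lowest without overlap in 2.91% of these probes. With arrays scaled to equal SD they were the 6 highest for GSN and CORO1A, against 9.85% of the probes, and the 6 lowest in 0.867%. For ACTB that scaling left 1 of the 6 wolves among the 6 highest. With the mean of all its probes, the distance between the sets for GSN fell from 0.359 to 0.0139. Mean marker levels overlapped between the 6 wolves and the other 7 for neutrophils (-0.0365 to 0.0393 against -0.0517 to 0.0674), monocytes (-0.015 to 0.084 against -0.103 to 0.000643), T cells (-0.119 to 0.108 against -0.0737 to 0.0284), B cells (0.0529 to 0.17 against 0.0334 to 0.135), platelets (0.206 to 0.484 against 0.216 to 0.543) and red cells (1.48 to 2.42 against 1.65 to 2.31). Ranges of single markers of a list leaned in different directions, mostly with overlap. Among monocyte markers FCER1G lay at 0.0755 to 0.816 in the 6 wolves and at -0.194 to 0.242 in the others, while CD14 lay at -0.34 to -0.12 and at -0.208 to -0.0571. Among B cell markers MS4A1 lay at -0.128 to -0.0436 and at 0.0035 to 0.153, while CD79A lay at 0.19 to 0.475 and at 0.144 to 0.368. Of the named markers MS4A1 alone had ranges without overlap. In the F test among wolves FCER1G passed (limma adjusted p = 6.61e-11), while MS4A1 (0.728), CD14 (0.514) and CD79A (0.163) did not. The neutrophil, monocyte, T cell and B cell lists stood near the array mean, and the part of cell composition in the split was not tested.

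**Figure D4:**
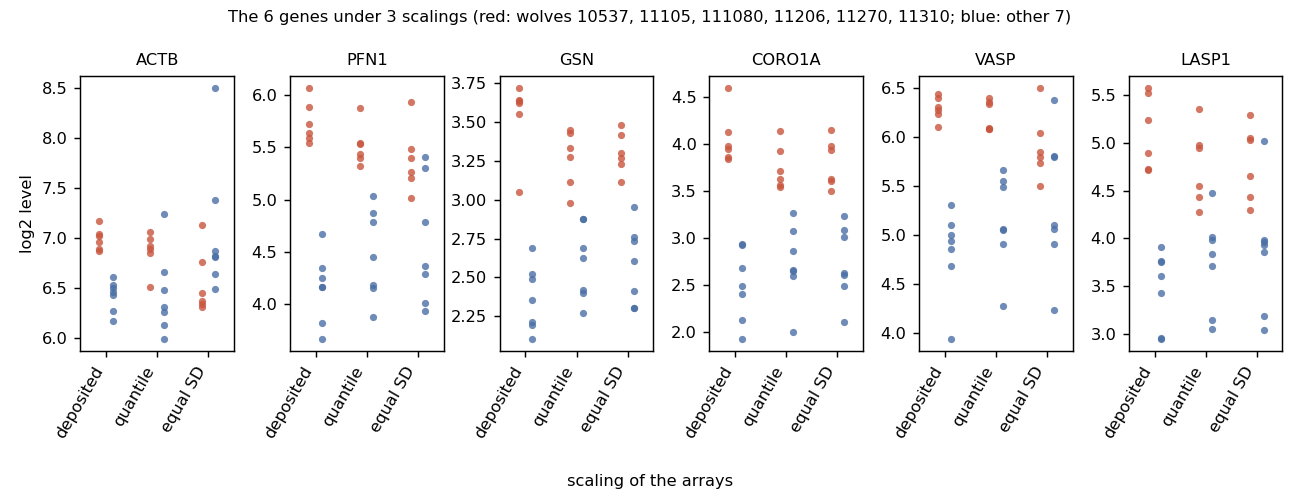
Log2 level (vertical axis, own scale for each gene) of ACTB, PFN1, GSN, CORO1A, VASP and LASP1 in the 13 wolves under the deposited scaling, quantile normalization and arrays scaled to equal SD (horizontal axis). The 6 wolves in red stay apart under all 3 scalings for the brightest probes of GSN and CORO1A, and overlap the others for ACTB under both rescalings.

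Pairs of genes that share a complex or a process were compared over the wolves. Of 12 pairs chosen for this, 10 had probes for both genes. For CFL1 with PFN1, CORO1A with ARPC2 and LASP1 with ZYX no pooled value is given, since PFN1, CORO1A and LASP1 left the wolves in separate sets of 6 and 7, with a gap of at least 0.3 of the gene's range between them. For ACTB that gap was 0.251 of the range. Within the 6 and the 7 wolves, r was 0.652 and 0.0564 for CFL1 with PFN1, 0.281 and 0.205 for CORO1A with ARPC2, and 0.727 and -0.318 for LASP1 with ZYX, without a test. None of the 7 other pairs passed after adjustment over 10 pairs, and 2 of the 7 had an unadjusted permutation p under 0.05.

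The myosin chains MYH9 and MYL6 tended in opposite directions over 13 wolves without passing. Pearson's r was -0.571 (two-sided permutation p = 0.0434, 0.108 after adjustment) and Spearman's coefficient -0.555 (permutation p = 0.0534, 0.134 after adjustment). Leaving out wolves 11136 and 11273, at the ends of MYH9, gave -0.487, and r was -0.923 within the 6 wolves and -0.818 within the 7. Within slides r ran from -0.888 to 0.167. Under the 21 alternatives it ran from -0.859 to -0.441. After quantile normalization r was -0.859 (permutation adjusted p = 0.0032), with arrays scaled to equal SD it was -0.843 (permutation adjusted p = 0.006) and without wolf 11148 it was -0.718 (permutation adjusted p = 0.0316). The thymosins TMSB4X and TMSB10 had r = 0.593 (permutation p = 0.0288, 0.096 after adjustment) and a Spearman coefficient of 0.527 (permutation p = 0.0671, 0.134 after adjustment). Within the 6 and the 7 wolves r was 0.0436 and 0.109. Without wolves 11206 and 11273 r was 0.523, and within slides it ran from 0.00237 to 0.887. Without wolf 11136 it was 0.750 (permutation adjusted p = 0.013). Under the 21 alternatives for this pair r ran from 0.188 to 0.750.

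ARPC2 and ARPC3, subunits of the same complex, had r = 0.511 (permutation p = 0.0736, 0.123 after adjustment) and a Spearman coefficient of 0.462 (permutation p = 0.114, 0.162 after adjustment), with 0.302 left without wolves 11273 and 11310 and values from -0.0168 to 0.866 within slides. Within the 6 and the 7 wolves r was 0.239 and 0.353. Without wolf 11270 alone r was 0.688 (permutation adjusted p = 0.0376). Under the 21 alternatives it ran from 0.357 to 0.688. ACTB with ACTG1, CAPZA1 with CAPZB, WAS with WIPF1 and MSN with EZR had r of -0.246, -0.219, -0.159 and -0.357 (Spearman coefficients -0.187, -0.192, -0.154 and -0.555), with permutation adjusted p values of r between 0.336 and 0.606. For ACTB with ACTG1 r was -0.585 within the 6 wolves and 0.336 within the 7. In each of these 4 pairs a gene lay below the bound in all wolves.

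Among 1617 named probes above the bound outside the list, those most like CFL1 over the 13 wolves were CMTM7, a membrane protein of white cells, EMP3, a membrane glycoprotein, and RSU1, which sits with integrin-linked kinase at adhesion sites. For LASP1 they were GAB2, a signalling adaptor, CSRNP1 and TRIM8. For ARPC2 they were C11orf58, the proteasome subunit PSMB3 and RPN2, of the oligosaccharide transferase. Likeness was ranked by Pearson's r, which is given for RPN2 alone (0.977), since in the other 8 genes the 6 wolves named above were again the 6 highest without overlap. These are descriptions over 13 points that share arrays and signal range.

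Beyond the list, 80 of 86 other genes of the actin pathway had a probe, and 18 of the 80 differed among wolves, beside 11.2% of all probes. Above the bound lay 12 of the 80, and 11 of those passed, beside 78.0%. CDC42, which activates WASP, ran from 1.14 in wolf 11273 through 2.29 to 3.12 in wolf 111080 (limma adjusted p = 1.77e-20). DOCK2, the exchange factor for Rac in white cells, ran from 0.24 in wolf 11273 through 0.64 to 1.41 in wolf 11206 (limma adjusted p = 1.20e-10).

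Of integrins and their adaptors 4 of 14 passed, led by RSU1 (0.16 in wolf 11136 to 1.83 in wolf 11206, limma adjusted p = 5.36e-19), ILK, the integrin-linked kinase (0.09 in wolf 11273 to 1.39 in wolf 11206, limma adjusted p = 3.24e-12), and FERMT3, the kindlin of blood cells (0.70 in wolf 11136 to 1.49 in wolf 11105, limma adjusted p = 0.0198). Other myosins and side-binding proteins passed in 5 of 18. MYL12B, a regulatory light chain of non-muscle myosin, ran from 3.20 in wolf 11273 to 5.05 in wolf 11105 (limma adjusted p = 2.33e-17), the same lowest wolf as MYL6. MYL12A, a close relative of MYL12B, also passed (limma adjusted p = 0.00308), as did MYH10, below the bound (limma adjusted p = 0.000108). Of the red cell skeleton 1 of 8 passed, DMTN, dematin, which bundles actin under the red cell membrane, from 1.05 in wolf 11136 to 2.04 in wolf 11273 (limma adjusted p = 1.31e-06). Among kinases and phosphatases 2 of 11 passed, both below the bound: PPP1R12A, the myosin phosphatase subunit (limma adjusted p = 1.62e-05), and LIMK1, the kinase that inactivates cofilin (0.0464). None of 14 other nucleation factors passed or lay above the bound.

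Slides differed in 18 of the 42 genes and in 14 of the 15 above the bound with animal kept in the model, beside 20.3% of all probes and 83.8% of those above the bound (limma F test, adjusted p under 0.05). Slide was therefore a term of each fit.

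Against the 13 wolves, the coyote had higher values for most of the bright actin genes, and no gene passed. Of the 15 genes above the bound 11 stood higher in the coyote than the mean of the wolves. The share of all probes above the bound that did so was not counted. The 11 genes share arrays and signal range, so they are not separate observations. The median difference over the 15 was 0.628, against -0.089 for all probes above the bound, which were dimmer (median level 0.805 against 2.98). For ACTB, PFN1, GSN, CORO1A, VASP and LASP1 the coyote lay within the range of the wolves named above as highest for PFN1. Of the 42 genes 0 passed after adjustment in limma, with adjusted p values of at least 0.998, and 3 had an unadjusted p under 0.05, ARPC3, CAPZA2 and LCP1. Over all probes 0.00411% passed, while 1.88% were higher and 1.86% lower at an unadjusted p under 0.05. With 1 coyote, its own spread was taken to equal that of the wolves.

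ARPC3 stood at 2.87 in the coyote, above the highest wolf at 2.60, and 1.28 above the wolves' mean (95% interval 0.27 to 2.29). CORO1A stood at 4.46 in the coyote and ARPC2 at 4.12, both inside the range of the wolves, with differences of 1.24 (-0.416 to 2.90) and 1.13 (-0.521 to 2.78). For ARPC2 the difference was 0.325 with the mean of its probes. TMSB10, at 5.39, was the other of the 15 genes in which the coyote exceeded each wolf. On the lower side, LCP1 stood at 0.15 in the coyote, just below the lowest wolf and below the bound, against a wolves' mean of 0.56 (difference -0.41, interval -0.793 to -0.0217). MYH9 (0.64 in the coyote, difference -0.28, interval -0.807 to 0.249) and CORO1B (0.37, difference -0.25, interval -0.593 to 0.0935) followed. Without array replicate 3 the MYH9 difference was -0.181. CAPZA2 stood at 0.38 in the coyote, above each wolf and below the bound. The coyote thus lay above all wolves in 3 of the 42 genes (5.76% of all probes) and below them in 1 (6.40%). Among the 15 genes above the bound it lay above in 2 (2.61% of such probes) and below in 1 (4.20%), or outside the wolves' range in 3 (6.81%).

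**Figure D5:**
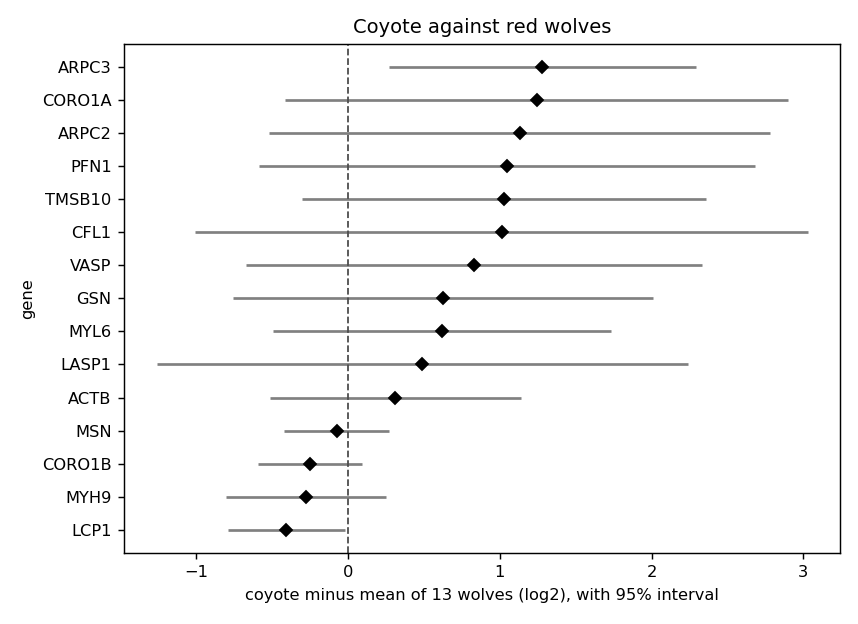
Coyote minus the mean of the 13 wolves (horizontal axis, log2) for the 15 genes above the bound (vertical axis), with 95% intervals as lines. The differences run from -0.41 for LCP1 to 1.28 for ARPC3, and the intervals of these 2 genes alone leave out 0.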

How the data were processed

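The submitters' processing notes name BeadStudio 1.5.0.34. The deposited log2 values were, per the labels' design text, log transformed and centred by the authors. In the table each array has a mean of 0. Whether background was subtracted is not stated in the labels, and no detection p values were used. Of 24354 probes 18339 carry 1 gene symbol, 0 several and 6015 none, per the platform annotation. Animal and slide came from the sample titles.

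Models were fitted in R 4.3.3 by limma 3.58.1, with the variance prior following intensity and Benjamini-Hochberg adjustment over all probes at 0.05. Wolves were compared by an F test of animal terms with slide as a term over 52 arrays. For the coyote, 1 value per animal entered the fit. Pairs of genes used 100000 permutations. Procedures were tested on simulated data. The list, the pairs and the other gene lists were chosen with earlier results of these data known. Genes above the bound that passed were described in full, as were the 3 largest coyote differences per direction and up to 3 genes per other list by SD. Alternatives covered normalization, centring, array scale, slide, position, dim probes, probes per gene, and leaving out array replicates (numbered in accession order) or wolves. No probe or protein sequences were used here, and the counts of 1 other gene list are not reported here.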

Additional observations from a re-analysis of the deposited data

Results flagged for a closer look

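In 4 of 45 sets of 4 arrays, those behind the lowest and highest wolf and the coyote for each of the 15 genes above the bound, an array stood apart from the other 3. About 1 set in 20 is picked out by chance where arrays differ by noise alone. The arrays of a set lie on different slides, and the values below are not corrected for slide. That rate takes no account of slide differences. CFL1 in wolf 11136 was 0.418 on slide 32010 and 0.614 to 0.639 on the others. CORO1A in wolf 111080 was 4.84 on slide 32010 and 4.54 to 4.58 on the others, and in the coyote 4.73 on slide 32020 and 4.41 to 4.44 on the others. MYL6 in wolf 11273 was 1.21 on slide 32020 and 0.715 to 0.786 on the others.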

How the results depend on the processing

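Of the 21 genes that differed among wolves, 16 kept the call under each alternative in which they were tested, and ACTB, CAPZA1, CORO1B, ACTN1 and MSN lost it under at least 1. The count lay between 15 (dim probes left out, 15 genes tested) and 21, and between 17 and 21 with an array replicate or a wolf left out. For the other actin pathway genes the count was 11 of 12 with dim probes left out, and 13 to 19 with a replicate or wolf left out. The median share of variance over the 42 genes, 0.29, was 0.227 after quantile normalization, 0.202 without the slide term, 0.253 with arrays scaled to equal SD and 0.84 over the 15 bright genes alone. Leaving out a replicate or wolf gave 0.255 to 0.379. No coyote difference passed (0 genes) under any of 24 alternatives in limma. Of the 7 gene pairs tested, 1 passed after quantile normalization and 1 with equal SD, and 0 to 1 with a replicate or wolf left out. The cause of these changes was not tested. The scalings of the 6-wolf pattern were chosen after seeing the data. The labels give no replicate numbers that pair animals, so arrays of different animals were matched by slide alone. Levels near 0.396 cannot be told from background.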
